A study of Mus musculus with 12 samples.

Results

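STHdhQ7/Q7 cells (Q7 cells here) are a striatal line of embryonic origin, taken from knock-in mice with the wild-type HdhQ7/Q7 genotype, in which huntingtin has a short glutamine repeat. Their response to heat was read from 3 arrays labelled as heat-shocked and 3 labelled as untreated, 6 of the 12 arrays of the series. All 34945 probe sets that name 1 gene were used. They represent 18194 genes, each by its brightest probe set. The other 6 arrays are of a mutant line, STHdhQ111/Q111 (Q111 cells), and serve here for comparison and for the estimate of spread. Both lines grew at 33 °C under 5% CO2 in DMEM with 10% fetal bovine serum and 400 µg/ml G418, a selection drug, and were used up to passage 15. Heat shock was 42 °C for 6 h, and total RNA was hybridised to Affymetrix mouse arrays. Each genotype is a single cell line.

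Cells meet heat with a fast rewriting of transcription. Heat shock factor 1 binds heat shock elements, inverted repeats of the unit GAA, and drives chaperone genes, while RNA polymerase II is held back at many other genes and splicing, export and translation are slowed. Chaperones, p53 targets and matrix genes are not described as groups here, although some of their members are named below. The groups covered here are the rest of the cell's working parts, namely the transcription and chromatin machinery, RNA processing, translation, ubiquitin enzymes, metabolism, membrane traffic, cytoskeleton, signalling, adhesion, DNA repair and survival.

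Levels are log2 values as deposited, and a change is the mean of the 3 heat-shocked minus the mean of the 3 untreated arrays, with its standard error (SE). A gene was called when limma's p, adjusted over all 18194 genes, was under 0.05. The labels do not state whether the 3 arrays of a group stem from separate cultures. The p-values therefore reflect the spread of these arrays alone, possibly a technical one, and the number of arrays limits the precision. The highest value of 27 probe sets for bacterial RNA, 5.14, bounds what is called background range. Of 16 markers of striatal projection neurons 6 lay in background range in both groups, and 10 were above it in at least 1 group. The mean level of all 16 was 5.67 to 5.90 on untreated and 5.40 to 5.98 on heat-shocked arrays. That of 14 neural progenitor markers was 7.75 to 7.87 and 7.47 to 7.61. The mean of 11 fibroblast markers was 8.70 to 8.88 and 8.37 to 8.42. Whether a lower level came from fewer cells of a kind or from less RNA per cell cannot be told apart in bulk RNA.

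Heat shock changed 5526 genes (30.4% of those tested), with 2233 higher (12.3%) and 3293 lower (18.1%). At least 2-fold were 1058 of the higher (5.82%) and 1891 of the lower genes (10.4%). Among the 12527 genes above background range in either Q7 group, which is the set most listed genes belong to, 16.8% were higher and 25.2% lower, and 8.16% and 14.8% were so at least 2-fold. The median change over all genes was 0.003. Heat-shocked arrays nevertheless had a lower median level, 7.01 against 7.36, and centring each array on its median adds 0.35 to every change. After this centring the median change was 0.36 over all genes. Over genes above background range it was 0.25, beside -0.10 as deposited. Centred medians of lists are to be read against these values and not against 0 alone. The calls were then 4845 higher and 2057 lower, 70.2% higher against 40.4% on the deposited scale, so the split between rises and falls depends on the scaling, and medians of groups are given on both scales below. Signal at the 3' end of beta-actin exceeded that at its 5' end by 0.69, 0.38 and 0.55 on the untreated and by 1.35, 1.50 and 1.60 on the heat-shocked arrays, which do not overlap. With this difference as a covariate 435 genes were called, 252 higher and 183 lower. Of 226 called genes named by rule, 55 kept their call under it, 170 lost it and 1 changed sign. Since this difference separates the 2 Q7 groups, the fit can hardly tell it apart from heat shock. Calls can be lost for that reason alone, and whether RNA quality made the changes was not tested. Under the covariate 45 of the 55 medians of gene lists described below stayed within their spread between replicates. The mean of a gene's probe sets in place of the brightest moved 58 of the 226 changes by over 1.5 times and ended 13 calls, none of them of a gene whose change is printed below by that rule. The genes that kept their call with the actin covariate are pointed out in each paragraph as a description.

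The largest changes were taken among genes above background range in both Q7 groups, with chaperones, predicted genes and clone names left out. There the 12 largest rises ran from 2.98 to 4.54, and the 12 largest falls from -3.92 to -3.08. Efnb3 and Wnt5b changed as much but lay in background range in 1 group and are not among them. Klb, which encodes beta-klotho, the co-receptor for some endocrine fibroblast growth factors, was at 5.62, 4.96 and 5.01 on the untreated and 9.82, 9.57 and 9.82 on the heat-shocked arrays (4.54, SE 0.29, adjusted p = 3.31e-06). Pla2g4c, a cytosolic phospholipase A2, rose from 6.03, 5.78 and 5.11 to 9.87, 10.05 and 10.00, a 20.2-fold difference (4.34, SE 0.23, adjusted p = 1.28e-06), although its other probe set above background changed by only 0.81. Efnb3, the transmembrane ligand ephrin-B3, which is outside the 12, was at 5.34, 5.24 and 4.10 and 9.07, 9.10 and 9.35 (4.28, SE 0.32, adjusted p = 8.75e-06). In these 3 genes the untreated arrays sat at or near background range and the heat-shocked arrays far above it, with no overlap. P2rx7, an ATP-gated cation channel, rose by 3.38 (SE 0.24, adjusted p = 5.93e-06), Vpreb1, a surrogate light chain of the pre-B-cell receptor, by 3.98 (SE 0.19, adjusted p = 7.32e-07), and Tph2, the neuronal enzyme that begins serotonin synthesis, by 3.06 (SE 0.30, adjusted p = 4.07e-05). Cd80, a costimulatory ligand of T cells, rose by 3.10 (SE 0.31, adjusted p = 4.38e-05). Mybl1, a Myb-family transcription factor, was already well above background before heat, at 8.91, 8.37 and 8.49, and reached 11.49, 11.72 and 11.50 (2.98, SE 0.33, adjusted p = 7.23e-05). The others of the 12 were Wdr38, Magef1, Tmod4, Cep295nl and Eid3. All 12 rises kept their call with the actin covariate.

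**Figure D1:**
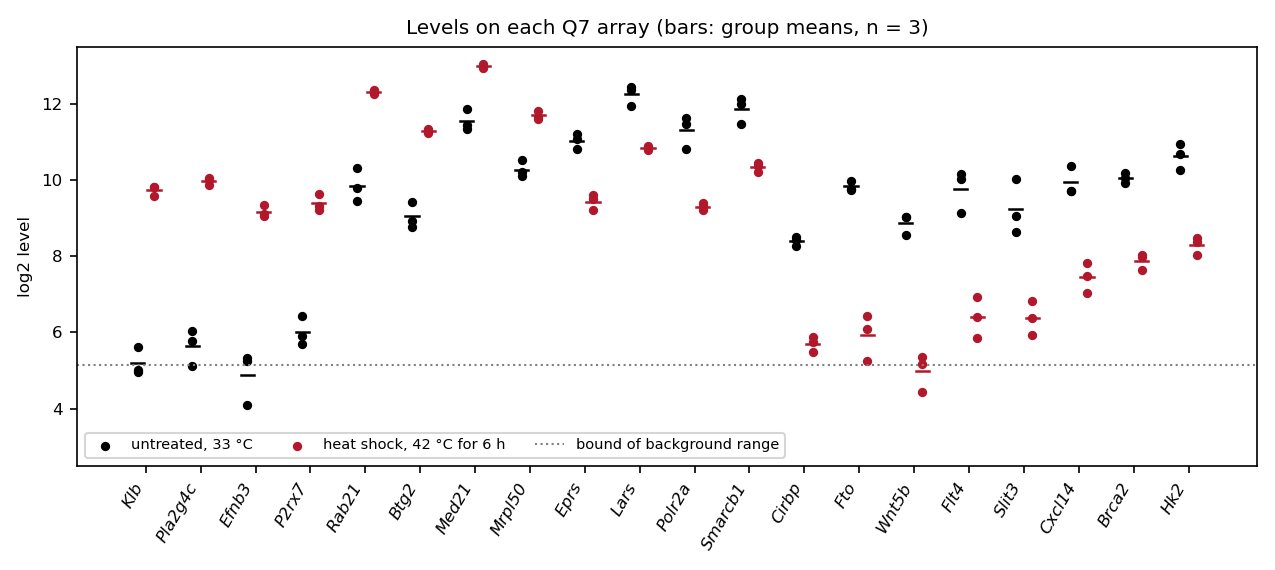
Log2 levels of 20 genes named in the text on each of the 3 untreated (black) and 3 heat-shocked (red) Q7 arrays; short bars are group means and the dotted line marks background range. Points of the 2 groups do not overlap for any gene shown, which the rule for naming them required, and Klb, Pla2g4c and Efnb3 start near the dotted line.

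Among the 12 largest falls, Fto, an RNA demethylase, was at 9.77, 9.99 and 9.75 on the untreated and 6.44, 5.25 and 6.08 on the heat-shocked arrays (-3.92, SE 0.35, adjusted p = 2.15e-05), a 15.1-fold reduction. Tenm3, a teneurin that guides neuronal wiring, went from 9.90, 9.76 and 9.15 to 6.39, 5.44 and 6.27 (-3.57, SE 0.25, adjusted p = 5.93e-06). Txnrd3, a thioredoxin reductase, went from 9.30, 9.47 and 9.28 to 6.24, 5.86 and 5.53 (-3.48, SE 0.38, adjusted p = 6.3e-05). All heat-shocked arrays were below all untreated arrays for each of the 3. The tight-junction gene Cldn1 fell by 3.36 (SE 0.30, adjusted p = 2.23e-05), the transcriptional regulator Prdm16 by 3.10 (SE 0.30, adjusted p = 3.61e-05) and Zbtb7c by 3.19 (SE 0.24, adjusted p = 8.37e-06). Nav3, a neuron navigator, gave -3.84 (SE 0.39, adjusted p = 4.79e-05), but 1 of its other probe sets gave -0.03. Col8a1, Cemip, Flt4, Gpc6 and Bcas3 complete the 12. Fto, Tenm3, Cldn1, Zbtb7c, Prdm16 and Bcas3 kept their call with the actin covariate.

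Some of the changed genes carry the letters of a heat shock element near their start. RefSeq promoters on GRCm38.p6, 250 bases before to 50 after each start, were searched for 3 adjacent units of the element, GAA and its reverse complement TTC in turn with any 2 bases (NN) between units; the order that starts with GAA is the reverse complement of the one that starts with TTC, so both strands are covered. Of 14368 tested genes with a promoter 88 held a match (0.612%), as did 0.603% of all 32851 promoter sequences. The share was 0.774% of the 1808 called higher, 0.495% of the 2624 called lower and 19.0% of 21 genes named Hsp or Dnaj that were called higher. The 6 called genes with a match that changed most, and Chordc1, which was added after its values were seen because its matches overlap, are shown with the matched letters in capitals.
Mettl23: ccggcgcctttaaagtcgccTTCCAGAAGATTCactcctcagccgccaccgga
Lingo3: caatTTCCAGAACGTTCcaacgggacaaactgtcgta
Gm6297: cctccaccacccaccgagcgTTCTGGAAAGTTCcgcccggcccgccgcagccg
BC065397: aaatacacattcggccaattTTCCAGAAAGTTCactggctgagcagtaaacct
Eme2: tacgtccgGAAGCTTCAGGAAcgaaggac
Krt20: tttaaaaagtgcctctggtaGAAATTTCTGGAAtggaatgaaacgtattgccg
Chordc1: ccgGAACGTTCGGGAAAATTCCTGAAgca
The windows lie at chr11:116843309-116843361 (plus strand), chr10:80844253-80844289 (minus), chr4:40722514-40722566 (minus), chrX:136742854-136742906 (plus), chr17:24895052-24895080 (minus), chr11:99438269-99438321 (minus) and chr9:18292260-18292288 (plus). Most matches lie upstream of the annotated start, from base -246 in Lingo3 to -83 in BC065397, while that of Eme2 begins 15 bases after it and those of Chordc1 run from -4 to 18. A match is a run of letters and not evidence of binding.

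Mettl23, a methyltransferase gene whose start lies within 1 kb of Jmjd6, was at 9.45, 9.49 and 10.07 on the untreated and 11.51, 11.70 and 11.85 on the heat-shocked arrays (2.01, SE 0.19, adjusted p = 2.76e-05). Chordc1, a co-chaperone of Hsp90, went from 11.26, 10.82 and 10.79 to 12.32, 12.37 and 12.24 (1.35, SE 0.15, adjusted p = 7.49e-05). BC065397 rose by 1.80 (SE 0.28, adjusted p = 0.000631), and Gm6297, next to the J-domain chaperone gene Dnaja1, by 1.89 (SE 0.32, adjusted p = 0.00105). The untreated Gm6297 arrays, at 4.14, 4.39 and 4.98, all lay in background range. The arrays did not overlap between the groups for any of these 4 rises, nor for Lingo3, Eme2 and Krt20, which follow. The same held for 48.8% of all genes tested. Lingo3 (-1.99, SE 0.30, adjusted p = 0.000537), Eme2, a subunit of a structure-specific endonuclease (-1.78, SE 0.24, adjusted p = 0.000267), and Krt20, a keratin (-1.64, SE 0.36, adjusted p = 0.00489), fell. Krt20 was at 5.79, 6.35 and 4.47 on the untreated and 4.01, 3.85 and 3.83 on the heat-shocked arrays. The latter all lay in background range, which limits the size of its change. Among genes called at 2-fold or more the share with a match was 0.474% of 843 higher and 0.476% of 1472 lower genes.

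Across 55 gene lists with 2185 distinct measured genes, 298 (13.6%) were called higher and 562 (25.7%) lower. Over all genes above background range the shares were 16.8% and 25.2%, beside which the count of each list is to be read. More members fell than rose in 39 lists and more rose than fell in 13. The list median was below 0 in 41 lists as deposited, in 9 after median centring and in 35 after a further quantile normalization, so most of these medians change sign with the scaling. After median centring more members fell than rose in 17 lists, namely the synthetases, chromatin remodelers, glycolysis, citrate cycle, fatty acid, nucleotide, Golgi, cilium, centrosome, ERK feedback, Wnt, YAP, receptor kinase, NF-kappaB, semaphorin, integrin and cadherin lists. Only 3 lists, the aminoacyl-tRNA synthetases, the chromatin remodelers and the integrins, had no member called higher. With the actin covariate no list had more than 2 members called higher or 3 called lower, and the synthetases and the remodelers had 0. Leaving out single arrays moved some counts by over 1.5 times, among lists with 10 or more calls in a direction. Leaving out heat shock replicate 1 took the respiratory chain from 21 to 12 rises and the mitochondrial ribosome from 14 to 8. Leaving out heat shock replicate 2 took falls of nucleotide synthesis from 14 to 9, of the lysosome and TGF-beta lists from 12 to 7, of histone methyltransferases from 11 to 6, and of polymerase II elongation and the proteasome from 10 to 5. Leaving out heat shock replicate 3 took the citrate cycle from 15 to 9 falls, the proteasome from 10 to 4, and the respiratory chain to 11 and the mitochondrial ribosome to 7 rises. Without untreated replicate 1 these 2 lists had 13 and 7 rises, and without untreated replicate 2 they had 12 and 9. Without untreated replicate 2 falls numbered 8 for mRNA decay, 7 for histone methyltransferases, the lysosome and TGF-beta, 6 for the proteasome and 5 for polymerase II elongation. Without heat shock replicate 3 polymerase II elongation had 6, and without untreated replicate 3 the proteasome had 5.

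**Figure D2:**
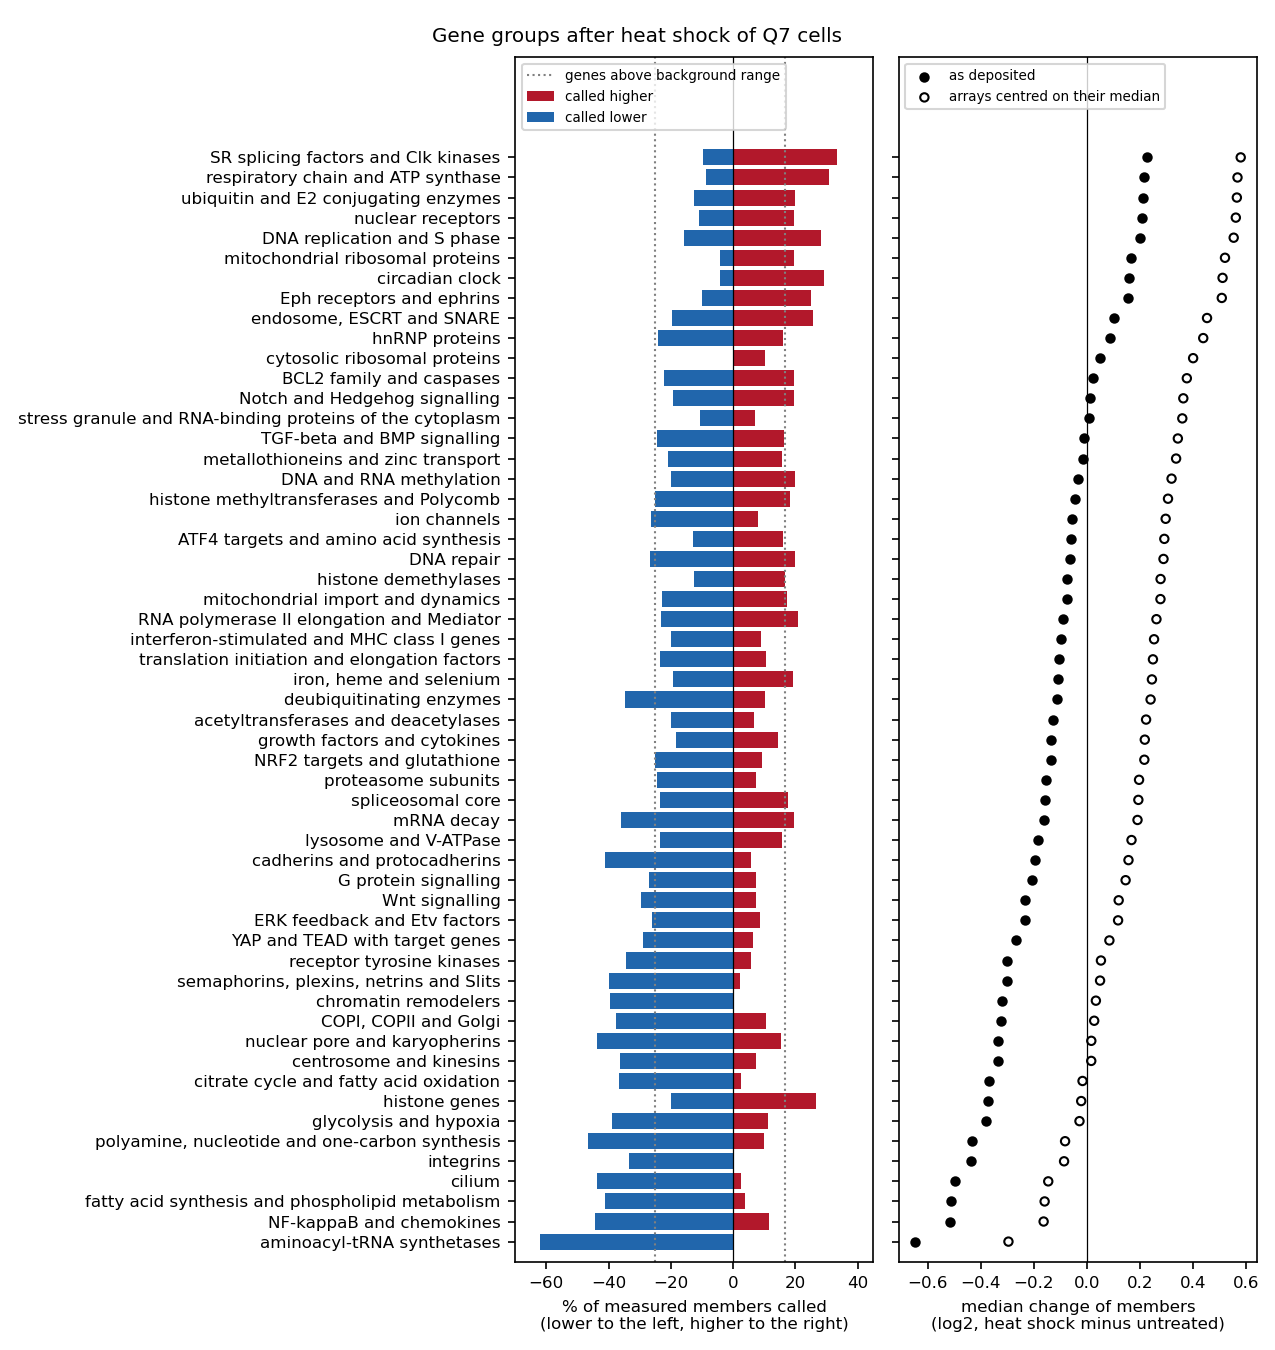
Each row is 1 gene list. Left, percent of measured members called higher (red) and lower (blue) after heat shock of Q7 cells, with dotted lines at the 16.8% and 25.2% of all genes above background range; right, the median log2 change of the members on the deposited scale (filled) and after median centring (open). The aminoacyl-tRNA synthetases have the lowest median on both scales, and the SR factors with Clk kinases and the respiratory chain stand at the top.

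Of 43 genes of RNA polymerase II elongation and the Mediator complex, 9 rose (20.9%) and 10 fell (23.3%), shares near the 16.8% and 25.2% of all genes above background range. Polr2a, the catalytic subunit of RNA polymerase II, was at 11.64, 11.48 and 10.83 on the untreated and 9.39, 9.20 and 9.31 on the heat-shocked arrays (-2.02, SE 0.27, adjusted p = 0.000269). Its other probe set gave -2.62. Nelfe, a subunit of the complex that pauses the polymerase, fell by 1.45 (SE 0.23, adjusted p = 0.000639). Med21, a Mediator subunit, rose from 11.34, 11.45 and 11.88 to 12.94, 13.04 and 13.01 (1.44, SE 0.17, adjusted p = 0.000136), and Ccnt2, a cyclin of the elongation kinase P-TEFb, from 9.71, 9.15 and 9.42 to 10.82, 10.92 and 10.88 (1.45, SE 0.19, adjusted p = 0.000252). Hexim1, which holds P-TEFb inactive, gave -0.54 (SE 0.20, adjusted p = 0.0595) and did not pass. Its other probe set gave -0.84 (SE 0.28) and passed limma's test over all probe sets (adjusted p = 0.0402). Of these Med21 kept its call with the actin covariate.

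Chromatin remodelers are ATP-driven machines that slide or evict nucleosomes. Of 38 measured, 15 fell and none rose, with a median of -0.32 as deposited, 0.03 after median centring, where 9 fell and 3 rose, and -0.33 with the actin covariate. Smarcb1, a core subunit of the BAF complex, was at 11.47, 12.13 and 12.01 on the untreated and 10.44, 10.22 and 10.36 on the heat-shocked arrays, which did not overlap (-1.53, SE 0.24, adjusted p = 0.000624). Its other probe sets gave -0.75 and -0.09. The BAF subunit Smarcd1 fell by 1.52 (SE 0.22, adjusted p = 0.000411). The NuRD ATPase Chd4 (-1.49) and the BAF ATPase Smarca4 (-1.13) were also called lower, while Arid1b (0.58) did not pass. 

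Of 44 histone methyltransferases and Polycomb proteins 8 rose (18.2%) and 11 fell (25.0%), again near the shares of all genes above background range. Bmi1, a subunit of Polycomb repressive complex 1, rose from 11.13, 11.11 and 11.12 to 12.22, 12.30 and 12.37 (1.18, SE 0.11, adjusted p = 3.12e-05), and the arginine methyltransferases Carm1 (-1.27, SE 0.23, adjusted p = 0.00187) and Prmt5 (-1.25, SE 0.20, adjusted p = 0.000695) fell. Of 24 histone demethylases 4 rose (16.7%) and 3 fell (12.5%), the former near the 16.8% of all genes above background range. Kdm5b, which removes methyl groups from lysine 4 of histone H3, went from 8.28, 7.84 and 7.79 to 6.09, 5.60 and 5.61 (-2.20, SE 0.20, adjusted p = 2.15e-05). Kdm3a, which acts on lysine 9, rose from 10.12, 10.26 and 10.26 to 11.22, 11.37 and 11.44 (1.13, SE 0.12, adjusted p = 5.66e-05), and Kdm7a rose by 1.55 (SE 0.22, adjusted p = 0.000344). Among 30 acetyltransferases and deacetylases, with 2 higher and 6 lower, Sirt7 rose (1.13, SE 0.24, adjusted p = 0.00386) and Hdac8 fell (-1.95, SE 0.38, adjusted p = 0.00255). Of 20 DNA and RNA methylation genes 4 rose and 4 fell. Besides Fto, these were led by Mbd4, a glycosylase that repairs deaminated methylcytosine, which rose from 7.45, 7.08 and 7.30 to 9.20, 9.13 and 9.23 (1.91, SE 0.15, adjusted p = 1.32e-05), and by Dnmt3b, a de novo DNA methyltransferase, which fell from 7.04, 6.99 and 6.72 to 5.28, 5.37 and 5.37 (-1.58, SE 0.22, adjusted p = 0.000295). Kdm5b, Kdm3a, Mbd4, Dnmt3b and Fto kept their call with the actin covariate. Of 15 histone genes 4 rose and 3 fell, and probes do not tell their near-identical copies apart.

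In splicing, of 21 SR splicing factors and Clk kinases, which phosphorylate SR proteins, 7 rose and 2 fell, with a median of 0.23 (0.58 centred). Clk3 was at 9.75, 10.15 and 9.99 on the untreated and 11.05, 10.90 and 11.05 on the heat-shocked arrays (1.04, SE 0.18, adjusted p = 0.00133), and Clk4 at 10.04, 9.72 and 9.64 and 10.68, 10.89 and 10.90 (1.02, SE 0.20, adjusted p = 0.00281). Neither overlapped between the groups. Srsf6 went the other way (-0.97, SE 0.13, adjusted p = 0.000222). In the spliceosomal core 6 of 34 genes were higher (17.6%) and 8 lower (23.5%), near the shares of all genes above background range. The SF3B subunit Sf3b6 (0.95, SE 0.14, adjusted p = 0.000422) and the Sm-like protein Lsm3 (1.03, SE 0.15, adjusted p = 0.000432) rose. The U1 protein Snrnp70 (-1.15, SE 0.24, adjusted p = 0.00333) and Prpf8 at the catalytic centre (-1.07, SE 0.20, adjusted p = 0.002) fell. Among 25 hnRNP proteins 4 rose (16%) and 6 fell (24%), again near those shares. They were led by Ptbp2, the neuronal polypyrimidine-tract protein (0.96, SE 0.17, adjusted p = 0.0014), and Hnrnpa0 (-0.94, SE 0.16, adjusted p = 0.000947). Of these Sf3b6 kept its call with the actin covariate.

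Of 36 mRNA decay genes 7 rose and 13 fell, but 10 rose and 8 fell after median centring. Btg2, an activator of deadenylation, was at 9.43, 8.93 and 8.78 on the untreated and 11.33, 11.29 and 11.25 on the heat-shocked arrays (2.25, SE 0.24, adjusted p = 5.58e-05), and Zfp36 (tristetraprolin), which recruits the decay machinery to AU-rich RNAs, rose by 1.39 (SE 0.24, adjusted p = 0.00118). Smg6, the endonuclease of nonsense-mediated decay, fell from 10.43, 10.41 and 10.07 to 8.52, 7.89 and 8.26 (-2.08, SE 0.26, adjusted p = 0.000185), and the exosome subunit Exosc5 fell by 2.06 (SE 0.51, adjusted p = 0.00961). Of 39 nuclear pore proteins and karyopherins 6 rose and 17 fell, with a median of -0.34 (0.02 centred, where 10 rose and 4 fell). Nup210, a membrane-anchored pore protein, went from 10.84, 10.17 and 10.08 to 8.68, 8.41 and 8.80 (-1.73, SE 0.23, adjusted p = 0.000215). The export receptor Cse1l, which recycles importin alpha, fell (-1.04, SE 0.15, adjusted p = 0.000417), and Xpo1, the exporter of proteins with a leucine-rich signal, rose (0.63, SE 0.14, adjusted p = 0.00632). Of 28 cytoplasmic RNA-binding proteins of stress granules 2 rose and 3 fell. The largest change among them was that of Cirbp, a protein known for induction by cold, at 8.51, 8.28 and 8.43 at 33 °C and 5.88, 5.47 and 5.75 after heat (-2.70, SE 0.24, adjusted p = 2.24e-05), a 6.51-fold reduction without overlap. Btg2, Nup210 and Cirbp kept their call with the actin covariate.

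Enzymes that charge tRNAs with amino acids were the list with the largest share of called members that fell. Of 21 listed aminoacyl-tRNA synthetases and scaffold proteins 13 fell (61.9%), none rose and 8 did not pass. Eef1e1, another protein of the synthetase complex, was listed with the initiation and elongation factors and rose. The median was -0.65 as deposited, -0.30 after median centring, where 6 fell and 1 rose, and -0.73 with the actin covariate. Eprs, which charges glutamate and proline tRNAs, was at 10.81, 11.09 and 11.21 on the untreated and 9.60, 9.22 and 9.50 on the heat-shocked arrays (-1.60, SE 0.21, adjusted p = 0.000209). Its other probe sets gave -1.96 and -1.83. Lars, the leucine enzyme, went from 11.96, 12.37 and 12.44 to 10.80, 10.85 and 10.89 (-1.41, SE 0.20, adjusted p = 0.000319). No array of one group reached the range of the other for either gene. Farsb (-1.06), Mars1 (-1.05) and Kars (-0.99) came next among the called, and the scaffold protein Aimp1 (0.16) and the serine enzyme Sars (-0.17) were the members nearest to 0 or above it. With single arrays left out 10 to 13 members fell. With the actin covariate no member was called, Eprs and Lars included. In Q111 cells the median of the list was -0.48.

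**Figure D3:**
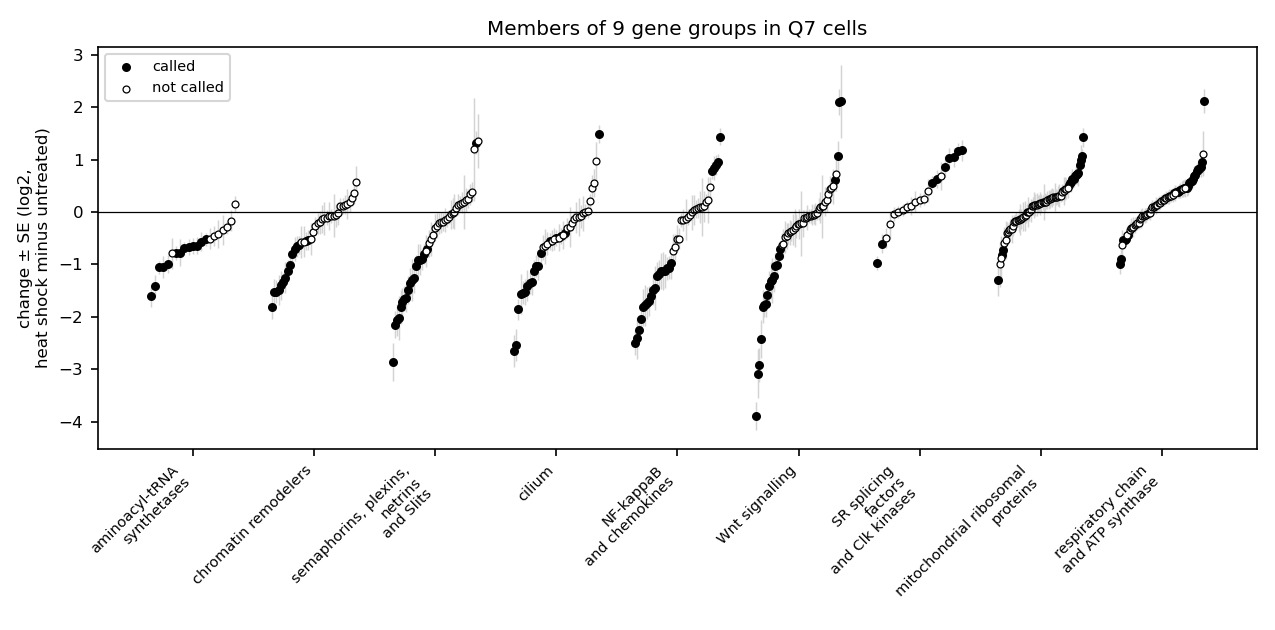
Log2 change (heat shock minus untreated, ± SE) of every measured member of 9 gene lists in Q7 cells, ordered within each list; filled points were called by limma at an adjusted p under 0.05. All but 1 of the synthetases lie below 0, whereas many members of the respiratory chain and mitochondrial ribosome lists lie above it.

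Other parts of translation gave other counts. Of 47 initiation and elongation factors 5 rose (10.6%) and 11 fell (23.4%), or 10 and 7 after median centring. The share that fell was near the 25.2% of all genes above background range. Eef1e1, a small protein of the synthetase complex that is listed with these factors, rose from 10.26, 9.94 and 10.24 to 11.46, 11.52 and 11.59 (1.38, SE 0.19, adjusted p = 0.000321). Eif4a2, an RNA helicase of initiation, rose (0.93, SE 0.15, adjusted p = 0.000919), and Eif2b3, a subunit of the nucleotide exchange factor for eIF2, fell from 10.54, 10.90 and 10.97 to 9.31, 8.92 and 8.97 (-1.74, SE 0.22, adjusted p = 0.000176). The scaffold Eif4g3 fell (-1.42, SE 0.17, adjusted p = 0.000119). Of 29 cytosolic ribosomal protein genes 3 rose and none fell, with a median of 0.05 (0.40 centred), and Rpl14 led them (1.15, SE 0.11, adjusted p = 4.31e-05); processed pseudogenes of such genes can share probes. Of 72 mitochondrial ribosomal proteins 14 rose and 3 fell, with a median of 0.17 (0.52 centred and 0.30 with the actin covariate). Mrpl50 was at 10.22, 10.10 and 10.52 on the untreated and 11.62, 11.67 and 11.81 on the heat-shocked arrays (1.42, SE 0.18, adjusted p = 0.000201). Mrps33 rose (1.06, SE 0.15, adjusted p = 0.000321), and Mrpl2 (-1.30, SE 0.31, adjusted p = 0.00745) and Mrps15 (-0.82, SE 0.15, adjusted p = 0.00195) fell. Eef1e1, Rpl14 and Mrpl50 kept their call with the actin covariate.

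In the ubiquitin system, of 40 genes for ubiquitin and E2 conjugating enzymes 8 rose and 5 fell. Ube2b, an E2 of DNA damage tolerance and histone ubiquitination, was at 11.57, 11.66 and 12.10 on the untreated and 12.90, 12.95 and 12.90 on the heat-shocked arrays (1.14, SE 0.17, adjusted p = 0.000529), and its 3 other probe sets gave 1.41 to 2.86. Ube2t, the E2 of the Fanconi anaemia pathway, rose from 9.11, 9.29 and 9.85 to 11.20, 11.17 and 11.19 (1.77, SE 0.22, adjusted p = 0.000179). Ube2e2 fell (-1.16, SE 0.15, adjusted p = 0.000187). Of 49 deubiquitinating enzymes 5 rose and 17 fell, with a median of -0.11 (0.24 centred, where 11 rose and 9 fell). Usp22, the enzyme of the SAGA coactivator, went from 11.52, 11.15 and 11.27 to 9.56, 9.33 and 9.38 (-1.89, SE 0.21, adjusted p = 8.54e-05). Otub1 fell by 2.06 (SE 0.25, adjusted p = 0.000132), but its other probe set gave -0.02. Of 41 proteasome subunits and assembly factors 3 rose (7.3%) and 10 fell (24.4%), or 11 and 3 after median centring. The share that fell was near the 25.2% of all genes above background range. The assembly chaperone Psmd10 (1.26, SE 0.20, adjusted p = 0.000771) and the ATPase Psmc6 (0.54, SE 0.12, adjusted p = 0.00438) rose, and the inhibitor Psmf1 (-1.51, SE 0.34, adjusted p = 0.00618) fell. Ube2b kept its call with the actin covariate.

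More respiratory chain genes rose than fell. Of 68 subunits of the respiratory chain and ATP synthase 21 rose (30.9%) and 6 fell, with a median of 0.22 as deposited, 0.57 after median centring, where 42 rose and 2 fell, and 0.27 with the actin covariate. Most of these changes were small, and only Cox7c, a cytochrome oxidase subunit, was called at 2-fold or more, at 7.52, 7.41 and 7.92 on the untreated and 9.47, 9.79 and 9.94 on the heat-shocked arrays (2.11, SE 0.23, adjusted p = 7.23e-05). Ndufa4, another cytochrome oxidase subunit, went from 11.84, 11.76 and 12.05 to 12.79, 12.86 and 12.84 (0.94, SE 0.14, adjusted p = 0.00042) and kept its call with the actin covariate. The largest falls of the list were those of core subunits of complex I that carry electrons from NADH, Ndufs1 (-1.0, SE 0.19, adjusted p = 0.00254) and Ndufv1 (-0.89, SE 0.18, adjusted p = 0.00275). Of 35 mitochondrial import and dynamics genes 6 rose (17.1%) and 8 fell (22.9%), near the shares of all genes above background range. The intermembrane-space chaperone Timm8b (1.16, SE 0.16, adjusted p = 0.000245) and the import receptor Chchd4 (0.92, SE 0.18, adjusted p = 0.00223) rose, and the outer-membrane pore Tomm40 went from 9.71, 10.14 and 9.56 to 8.21, 7.02 and 7.73 (-2.15, SE 0.41, adjusted p = 0.00213).

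Of 41 genes of the citrate cycle and fatty acid oxidation 15 fell and 1 rose, with a median of -0.37 (-0.02 centred). Acaa2, the last enzyme of a round of mitochondrial beta-oxidation, fell from 10.58, 11.04 and 10.79 to 9.68, 9.22 and 9.47 (-1.34, SE 0.23, adjusted p = 0.00106), with both other probe sets lower too. Aco1, the cytosolic aconitase that doubles as iron regulatory protein 1, fell (-1.58, SE 0.19, adjusted p = 0.000118). The 1 that rose was Cpt1c, the brain isoform of carnitine palmitoyltransferase (1.33, SE 0.25, adjusted p = 0.002). Glycolysis and hypoxia genes followed, with 14 of 36 lower and 4 higher and a median of -0.38 (-0.03 centred). Hk2, the hexokinase that binds mitochondria, was at 10.95, 10.68 and 10.28 on the untreated and 8.47, 8.05 and 8.38 on the heat-shocked arrays (-2.34, SE 0.26, adjusted p = 8.31e-05), a 5.05-fold reduction. Pdk1, which inhibits pyruvate dehydrogenase, fell (-1.94, SE 0.25, adjusted p = 0.000196), while P4ha1, a prolyl hydroxylase induced by hypoxia, rose (1.06, SE 0.15, adjusted p = 0.000309). The arrays of the 2 groups did not overlap for any of the genes named in this paragraph, which the rule for naming them required. Kdm3a, also on this list, is described above.

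Of 51 genes of fatty acid synthesis and phospholipid metabolism 21 fell and 2 rose, with a median of -0.51 (-0.16 centred and -0.40 with the actin covariate). Acaca, acetyl-CoA carboxylase, the committed step of fatty acid synthesis, went from 10.42, 10.87 and 10.31 to 8.60, 8.26 and 8.57 (-2.05, SE 0.22, adjusted p = 5.7e-05), although its other probe set gave -0.36. Mgll, which breaks down the endocannabinoid 2-arachidonoylglycerol, fell (-2.05, SE 0.26, adjusted p = 0.000193), with -1.85 for its other probe set. Pla2g4c, named above, was one of those that rose. Of 30 genes of polyamine, nucleotide and one-carbon synthesis 14 fell and 3 rose, with a median of -0.43 (-0.08 centred). Cad, the fused enzyme that starts pyrimidine synthesis, was at 10.76, 10.91 and 10.43 on the untreated and 9.11, 8.75 and 9.07 on the heat-shocked arrays (-1.72, SE 0.22, adjusted p = 0.000201), and the mitochondrial folate enzyme Mthfd1l at 11.60, 11.90 and 11.92 and 10.14, 10.01 and 10.13 (-1.71, SE 0.17, adjusted p = 3.66e-05). Mat2b, the regulatory subunit of methionine adenosyltransferase, rose (0.72, SE 0.16, adjusted p = 0.00525). Odc1, which makes putrescine, gave 0.21 (SE 0.16, adjusted p = 0.361) and did not pass. Mthfd1l and Pla2g4c kept their call with the actin covariate.

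Of 32 NRF2 targets and glutathione genes 3 rose (9.4%) and 8 fell (25%), the latter near the 25.2% of all genes above background range. Aox1, an aldehyde oxidase, rose from 5.93, 5.90 and 5.37 to 8.18, 8.02 and 8.29 (2.43, SE 0.22, adjusted p = 2.15e-05) and kept its call with the actin covariate. Abcc4, an efflux pump, fell from 8.23, 8.73 and 8.66 to 6.61, 5.42 and 6.25 (-2.45, SE 0.33, adjusted p = 0.000243), and the glutathione transferase Gsta4 fell (-1.47, SE 0.22, adjusted p = 0.00049). Hmox1, heme oxygenase 1, rose by 0.86 (SE 0.25, adjusted p = 0.0235), a call that was lost (adjusted p = 0.0545 to 0.0932) on leaving out any array but untreated replicate 1. Srxn1, sulfiredoxin, gave -0.17 (SE 0.17, adjusted p = 0.495), which turned to 0.18 after median centring. Its other probe sets gave -0.18, -0.61 and -1.15. Only the last, the dimmest, passed limma's test over all probe sets (adjusted p = 0.0113). Of 19 metallothionein and zinc transport genes 3 rose (15.8%) and 4 fell (21.1%). Mt1 was at 12.83, 12.45 and 12.30 and 12.52, 12.41 and 12.55 (-0.04, SE 0.19, adjusted p = 0.911), with overlapping groups, and its sign changed with the scaling (0.32 centred). Its other probe set, at a mean level of 7.65, rose by 1.62 (SE 0.34, limma's p adjusted over all probe sets = 0.00406). The probe sets of Mt1 thus disagree. Mt2 was lower (-0.63, SE 0.16, adjusted p = 0.0126), a call lost after median centring (-0.27, adjusted p = 0.245) and without untreated replicate 2 (adjusted p = 0.0504). The zinc importer Slc39a10 fell (-0.82, SE 0.13, adjusted p = 0.000772). Of 31 iron, heme and selenium genes 6 rose and 6 fell, including the iron-sulfur protein Glrx5 (0.98, SE 0.14, adjusted p = 0.000327) and the selenophosphate synthetase Sephs2 (-1.27, SE 0.16, adjusted p = 0.000179). Of 31 ATF4 targets and amino acid synthesis genes 5 rose and 4 fell. Among them were Atf5 (1.42, SE 0.28, adjusted p = 0.00253) and Cebpb (1.39, SE 0.14, adjusted p = 3.92e-05), stress-linked transcription factors that rose, and Slc7a5, the large neutral amino acid carrier (-1.23, SE 0.21, adjusted p = 0.000959), and Stc2 (-1.64, SE 0.26, adjusted p = 0.000787), which fell. Cebpb kept its call with the actin covariate, although its other probe set gave 0.15. Txnip, an inhibitor of thioredoxin that is also induced by glucose, rose by 1.01 (SE 0.26, adjusted p = 0.0122), a call lost without untreated replicate 2 (adjusted p = 0.059).

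In membrane traffic, 17 of 66 endosome, ESCRT and SNARE genes rose and 13 fell. Rab21, a small GTPase of early endosomes and integrin recycling, was at 10.33, 9.79 and 9.44 on the untreated and 12.33, 12.38 and 12.27 on the heat-shocked arrays (2.47, SE 0.25, adjusted p = 4.81e-05), a 5.56-fold rise without overlap, and its other probe set gave 0.99. The ESCRT-II subunit Vps36 rose (1.24, SE 0.16, adjusted p = 0.000205). Chmp6, an ESCRT-III subunit, went from 8.95, 9.64 and 9.57 to 7.88, 6.82 and 7.34 (-2.04, SE 0.38, adjusted p = 0.00198), and the endosome tether Eea1 fell (-1.66, SE 0.23, adjusted p = 0.000347). Of 48 COPI, COPII and Golgi genes 5 rose and 18 fell, with a median of -0.33 (0.03 centred). Kdelr3, a receptor that returns proteins to the endoplasmic reticulum, rose (0.88, SE 0.17, adjusted p = 0.00265), and the coat subunit Copg2 (-1.52, SE 0.34, adjusted p = 0.00608) and the transcription factor Creb3l2 (-1.60, SE 0.27, adjusted p = 0.000974) fell. Of 51 lysosome and V-ATPase genes 8 rose (15.7%) and 12 fell (23.5%), near the shares of all genes above background range. Subunits of the membrane sector of the proton pump diverged, Atp6v0b rising from 11.29, 11.43 and 11.55 to 12.73, 12.72 and 12.94 (1.37, SE 0.15, adjusted p = 7.12e-05) and Atp6v0a1 falling from 9.57, 9.66 and 8.78 to 7.13, 6.31 and 7.09 (-2.49, SE 0.36, adjusted p = 0.000431). The lysosomal galactosidase Glb1 fell (-2.54, SE 0.41, adjusted p = 0.000838), and the protease Ctsk rose out of background range, from 4.44, 4.38 and 3.89 to 6.31, 6.16 and 6.16 (1.97, SE 0.17, adjusted p = 1.95e-05). Rab21 and Ctsk kept their call with the actin covariate.

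Of 39 cilium genes 17 fell and 1 rose, with a median of -0.50 (-0.15 centred, where 12 fell and 5 rose). Ofd1, a centriolar satellite protein, was at 9.22, 9.78 and 9.69 on the untreated and 7.06, 6.47 and 7.17 on the heat-shocked arrays (-2.66, SE 0.30, adjusted p = 9.18e-05). Cc2d2a, of the transition zone at the base of the cilium, went from 8.93, 9.62 and 9.15 to 7.10, 6.23 and 6.74 (-2.55, SE 0.30, adjusted p = 0.000124). The 1 that rose was Ift20, an intraflagellar transport subunit that also works at the Golgi, from 9.63, 9.99 and 10.11 to 11.37, 11.30 and 11.52 (1.49, SE 0.17, adjusted p = 7.51e-05). All 3 changed without overlap, which the rule for naming them required. Of 69 centrosome and kinesin genes 25 fell and 5 rose, with a median of -0.34 (0.02 centred, where 19 fell and 14 rose). The endosomal kinesin Kif16b fell from 8.98, 8.99 and 9.01 to 7.17, 6.64 and 7.03 (-2.05, SE 0.17, adjusted p = 1.41e-05) and Kif26b by 2.41 (SE 0.42, adjusted p = 0.00124), while the dynactin subunit Dctn3 rose (0.97, SE 0.21, adjusted p = 0.00477). Cc2d2a, Ift20 and Kif16b kept their call with the actin covariate.

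Of 54 Wnt pathway genes 16 fell and 4 rose, 14 of the falls at least 2-fold, and 12 fell and 8 rose after median centring. Wnt5b, a ligand of the pathway's beta-catenin-independent branch, was at 8.57, 9.02 and 9.04 on the untreated and 5.35, 4.43 and 5.16 on the heat-shocked arrays (-3.89, SE 0.28, adjusted p = 6.28e-06). The heat-shocked group mean lay in background range, which limits the size of the change that can be measured. Its other probe set gave -2.61. The secreted antagonist Dkk2 fell from 7.72, 8.29 and 5.92 to 4.22, 3.91 and 4.54 (-3.08, SE 0.46, adjusted p = 0.0005), with 1 untreated array well under the other 2. Of 35 receptor tyrosine kinases 12 fell and 2 rose. Flt4, the receptor for VEGF-C, went from 10.16, 10.04 and 9.14 to 6.94, 5.85 and 6.40 (-3.38, SE 0.35, adjusted p = 5.49e-05), and Pdgfra, the alpha receptor for platelet-derived growth factor, from 8.38, 9.03 and 7.11 to 5.57, 5.02 and 5.80 (-2.71, SE 0.38, adjusted p = 0.000339). Both fell with no overlap. Medians of the Wnt and receptor lists, -0.23 and -0.30, were 0.12 and 0.05 after median centring. Wnt5b kept its call with the actin covariate.

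Of 49 growth factor and cytokine genes 7 rose and 9 fell. Pdgfa, a ligand of Pdgfra, rose from 11.09, 10.68 and 10.79 to 12.31, 12.39 and 12.22 (1.45, SE 0.14, adjusted p = 4.02e-05), opposite to its receptor. Fgf18 rose out of background range, from 4.64, 5.16 and 4.82 to 7.87, 7.61 and 7.75 (2.87, SE 0.36, adjusted p = 0.000176). Fgf7, a mesenchymal factor for epithelia, fell from 9.19, 9.78 and 9.09 to 7.14, 6.33 and 6.60 (-2.66, SE 0.23, adjusted p = 2.07e-05), and Igfbp3, a carrier of insulin-like growth factors, fell (-2.30, SE 0.50, adjusted p = 0.00494). Of 49 TGF-beta and BMP genes 8 rose (16.3%) and 12 fell (24.5%), near the shares of all genes above background range. The ligand Bmp2 (-2.73, SE 0.41, adjusted p = 0.000514) and the BMP antagonist Grem1, which went from 10.52, 10.58 and 10.44 to 7.97, 7.83 and 8.05 (-2.56, SE 0.43, adjusted p = 0.000949), fell, while the activin antagonist Fst (1.82, SE 0.26, adjusted p = 0.000347) and the target gene Id2, from 9.12, 8.95 and 8.46 to 10.74, 10.69 and 10.65 (1.85, SE 0.22, adjusted p = 0.000135), rose. Id1, a target of the same pathway, gave 0.88 (SE 0.32, adjusted p = 0.0613) and did not pass. Pdgfa, Fgf7 and Id2 kept their call with the actin covariate.

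Of 36 Notch and Hedgehog genes 7 rose and 7 fell (19.4% each, near the background shares of 16.8% and 25.2%). After median centring 14 rose and 5 fell, and 3 to 7 fell on leaving out single arrays. The Notch ligand Jag2 (1.68, SE 0.21, adjusted p = 0.000149) and the Notch target Hes1, from 7.10, 7.35 and 7.50 to 8.79, 9.01 and 9.50 (1.78, SE 0.31, adjusted p = 0.00129), rose. Gli2, the transcription factor that activates Hedgehog targets, fell from 7.82, 8.09 and 7.49 to 5.87, 5.30 and 5.76 (-2.16, SE 0.24, adjusted p = 6.87e-05), and the Hedgehog co-receptor Cdon fell (-1.61, SE 0.22, adjusted p = 0.000289). Of 31 YAP and TEAD genes with their targets 2 rose and 9 fell. The target Ankrd1 went from 10.83, 10.37 and 10.92 to 8.36, 7.88 and 8.39 (-2.50, SE 0.23, adjusted p = 2.79e-05), Tead4 fell (-2.10, SE 0.49, adjusted p = 0.00678), and the kinase activator Mob1b rose (0.91, SE 0.15, adjusted p = 0.00111). The target Ccn2 was lower by 0.57 (SE 0.18, adjusted p = 0.0333), a call lost on leaving out any single array and after median centring (-0.22). Of 23 ERK feedback and Etv genes 2 rose (8.7%) and 6 fell (26.1%), the latter near the background share of 25.2%. The stress-induced phosphatase Dusp1 rose (1.17, SE 0.17, adjusted p = 0.000382), and Dusp9 (-2.66, SE 0.47, adjusted p = 0.00138) and Spred3 (-2.04, SE 0.38, adjusted p = 0.00202) fell. Dusp6, the phosphatase that follows ERK activity, gave -0.06 (SE 0.14, adjusted p = 0.812), with a sign that turned after median centring (0.30). Gli2 and Ankrd1 kept their call with the actin covariate.

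Of 43 NF-kappaB and chemokine genes 19 fell, 18 of them at least 2-fold, and 5 rose. The median was -0.52 as deposited, -0.16 after median centring, where 17 fell and 6 rose, and -0.53 with the actin covariate. Cxcl14, a homeostatic chemokine, was at 9.72, 10.38 and 9.72 on the untreated and 7.49, 7.02 and 7.84 on the heat-shocked arrays (-2.49, SE 0.24, adjusted p = 3.76e-05), with -3.37 for its other probe set. Tnfaip2, induced by tumour necrosis factor, went from 8.77, 9.70 and 9.46 to 7.54, 6.40 and 6.78 (-2.40, SE 0.40, adjusted p = 0.000888). Both groups of arrays stood clear of each other. Nfkbiz, a nuclear modulator of NF-kappaB, rose from 8.82, 8.68 and 8.96 to 10.14, 10.26 and 10.36 (1.43, SE 0.16, adjusted p = 8.97e-05), and the neutrophil chemokine Cxcl1 rose (0.96, SE 0.14, adjusted p = 0.000514). Nfkbiz kept its call with the actin covariate. Of 45 interferon-stimulated and MHC class I genes 4 rose and 9 fell. Irf9, the DNA-binding part of the interferon-stimulated factor complex, rose from 7.27, 7.25 and 7.07 to 8.55, 8.14 and 8.53 (1.21, SE 0.20, adjusted p = 0.00084) and also kept its call, while the peptide-trimming protease Erap1 fell (-1.54, SE 0.35, adjusted p = 0.00604).

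Among genes that steer axons, of 45 semaphorins, plexins, netrins and Slits 18 fell and 1 rose, with a median of -0.30 (0.05 centred, where 14 fell and 5 rose, and -0.38 with the actin covariate). The secreted repellent Slit3 was at 9.06, 10.04 and 8.65 on the untreated and 6.84, 5.94 and 6.38 on the heat-shocked arrays (-2.86, SE 0.37, adjusted p = 0.000198), and Slit2 at 10.95, 11.26 and 10.32 and 8.49, 8.71 and 8.88 (-2.15, SE 0.26, adjusted p = 0.000133). Slit2's other probe set gave -0.51. Of 20 Eph receptors and ephrins 5 rose and 2 fell, the rises including Efnb3, given above, and Efna2 (1.21, SE 0.17, adjusted p = 0.000386). Of 21 genes listed as integrins 7 fell and none rose. Itgb3, the beta subunit of the vitronectin receptor, fell from 8.37, 8.12 and 7.46 to 6.54, 5.52 and 5.86 (-2.01, SE 0.35, adjusted p = 0.00128). Itgbl1, an integrin-like gene on this list and not an integrin subunit, fell too (-1.94, SE 0.22, adjusted p = 0.000103). Of 34 cadherins and protocadherins 14 fell and 2 rose, including the mesenchymal cadherin Cdh11, from 9.35, 8.97 and 9.11 to 7.22, 6.16 and 6.80 (-2.42, SE 0.28, adjusted p = 9.12e-05), and Pcdhb22 (-2.55, SE 0.28, adjusted p = 6.98e-05). Medians of the integrin and cadherin lists, -0.44 and -0.20, were -0.09 and 0.16 after median centring. Efnb3 kept its call with the actin covariate.

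Of 76 ion channels 6 rose (7.9%) and 20 fell (26.3%), the latter near the 25.2% of all genes above background range. Only 50 of the 76 were above that range in a Q7 group. Besides P2rx7, at 6.43, 5.90 and 5.68 on the untreated and 9.32, 9.22 and 9.63 on the heat-shocked arrays, the channels named were Kcnq5, a subunit of the M-type potassium current, which fell from 10.10, 10.59 and 9.98 to 7.48, 7.67 and 7.61 (-2.64, SE 0.37, adjusted p = 0.00031), and the calcium-activated cation channel Trpm4, which fell (-2.18, SE 0.34, adjusted p = 0.000608). Of 67 G protein signalling genes 5 rose (7.5%) and 18 fell (26.9%), the latter again near that share. Rgs10, which speeds GTP hydrolysis by G proteins, rose from 9.31, 9.81 and 10.00 to 11.27, 11.03 and 11.28 (1.48, SE 0.20, adjusted p = 0.000244). The phosphodiesterase Pde1a (-2.21, SE 0.28, adjusted p = 0.000185) and the adenylyl cyclase Adcy3 (-2.18, SE 0.30, adjusted p = 0.000269) fell. Medians of these lists, -0.06 and -0.21, became 0.30 and 0.15 after median centring. P2rx7 kept its call with the actin covariate.

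Of 57 DNA replication and S phase genes 16 rose and 9 fell, with a median of 0.20 (0.55 centred). The 2 E-type cyclins, which drive entry into S phase, parted. Ccne2 rose from 9.67, 8.96 and 8.99 to 11.24, 11.24 and 11.04 (1.97, SE 0.21, adjusted p = 6.08e-05), and Ccne1 fell from 9.81, 10.09 and 9.89 to 8.22, 8.30 and 8.25 (-1.67, SE 0.25, adjusted p = 0.000464), with its other probe set at -2.49. Orc1, of the origin recognition complex, rose from 8.57, 8.84 and 8.82 to 10.52, 10.48 and 10.65 (1.81, SE 0.20, adjusted p = 6.55e-05), and the polymerase subunit Pole fell (-1.79, SE 0.26, adjusted p = 0.00042). Of 71 DNA repair genes 14 rose (19.7%) and 19 fell (26.8%), near the shares of all genes above background range. Brca2, which acts in homologous recombination, was at 10.06, 10.19 and 9.93 on the untreated and 7.98, 7.64 and 8.03 on the heat-shocked arrays (-2.17, SE 0.16, adjusted p = 7.66e-06), a 4.51-fold reduction. Xrcc5 (Ku80), of end joining, fell from 10.26, 10.81 and 10.87 to 8.73, 8.20 and 8.47 (-2.18, SE 0.24, adjusted p = 7.05e-05). The base-excision polymerase Polb rose from 10.04, 10.23 and 10.47 to 11.56, 11.59 and 11.71 (1.37, SE 0.15, adjusted p = 7.15e-05), and Bard1, the partner of Brca1, rose (1.42, SE 0.24, adjusted p = 0.000926). Ccne1, Orc1, Brca2 and Polb kept their call with the actin covariate.

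Of 36 BCL2 family and caspase genes 7 rose (19.4%) and 8 fell (22.2%), near the shares of all genes above background range. The BH3-only death genes Bbc3 (PUMA), from 6.56, 7.17 and 7.37 to 9.02, 8.51 and 8.93 (1.78, SE 0.34, adjusted p = 0.00204), and Pmaip1 (NOXA), from 9.76, 9.26 and 9.19 to 10.90, 10.92 and 10.72 (1.45, SE 0.19, adjusted p = 0.00021), rose, and the survival gene Bcl2 fell from 8.23, 7.99 and 7.39 to 6.18, 5.93 and 5.81 (-1.90, SE 0.27, adjusted p = 0.000344), the last keeping its call with the actin covariate. No arrays overlapped between the groups for these 3, which the rule for naming them required. Of 24 circadian clock genes 7 rose and 1 fell, the latter being Timeless (-0.98, SE 0.16, adjusted p = 0.000849), which also works in DNA replication. Nr1d1, the nuclear receptor REV-ERB alpha, was higher by 0.73 (SE 0.19, adjusted p = 0.012), a call lost without untreated replicate 1 (adjusted p = 0.0507), and Per2 gave 0.93 (SE 0.36, adjusted p = 0.0741) and did not pass. Of 36 nuclear receptors 7 rose and 4 fell. The early-response receptor Nr4a3 rose from 6.41, 6.77 and 5.40 to 8.18, 8.26 and 8.52 (2.13, SE 0.35, adjusted p = 0.000891), Esrra, a regulator of mitochondrial genes, rose (1.11, SE 0.23, adjusted p = 0.00399), and Pparg, the regulator of fat cell formation, fell (-1.57, SE 0.23, adjusted p = 0.000422). Hsf1 and the cold-inducible Rbm3 are not analysed here.

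Probe sets of 1 gene did not always give the same size of change. Of 96 called genes named by rule that had another probe set above background range, 35 had one whose change was under 0.5 of that of the probe set used. Among genes described above, and beside those already given, these included in signalling and adhesion Cdh11 (-0.30), Cdon (-0.21), Tead4 (-0.43), Pdgfra (-1.25), Efna2 (0.15) and Adcy3 (-0.51 and -0.89). In transcription and RNA processing they were Ccnt2 (0.52), Mbd4 (0.75), Prdm16 (-0.41), Srsf6 (-0.15), Xpo1 (0.14) and Snrnp70 (-0.39, -0.26 and -0.17). In metabolism, traffic and protein turnover they were Pdk1 (-0.88 and -0.23), Vps36 (0.30), Atp6v0a1 (-1.18), Mrps15 (-0.05) and Psmf1 (-0.60). The remaining ones were Bcas3 (-0.33), Gpc6 (-0.11), Col8a1 (-1.74), Polb (0.23) and Bcl2 (-0.93). For these genes the printed size rests on the brightest probe set.

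Changes also went with the length of the gene in the genome. This comparison was chosen after values were seen. Of the genes above background range 11932 coding genes had a span on GRCm38.p6 and were ranked into deciles. In the shortest decile, 0.438 to 4.44 kb, 19.3% of genes rose and 16.3% fell. In the longest decile, 120.438 to 2390 kb, 4.61% rose and 47.3% fell. The median change was 0.04 in the shortest and -0.62 in the longest decile, or 0.39 and -0.27 after median centring, so the longest genes were below 0 on both scales. The difference of -0.66 between these medians was larger than the spread of 0.21 between replicates and was -0.56 with the actin covariate. Among genes at an untreated level of 8 to 11, 46.0% fell in the longest quintile and 19.3% in the shortest. Rank correlation of change with length over the 11932 genes was -0.18, as a description across genes, which are not independent. Of the 12 largest falls above background range in both groups 9 were in the longest decile and of the 12 largest rises none, with median spans of 325 and 21.6 kb.

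**Figure D4:**
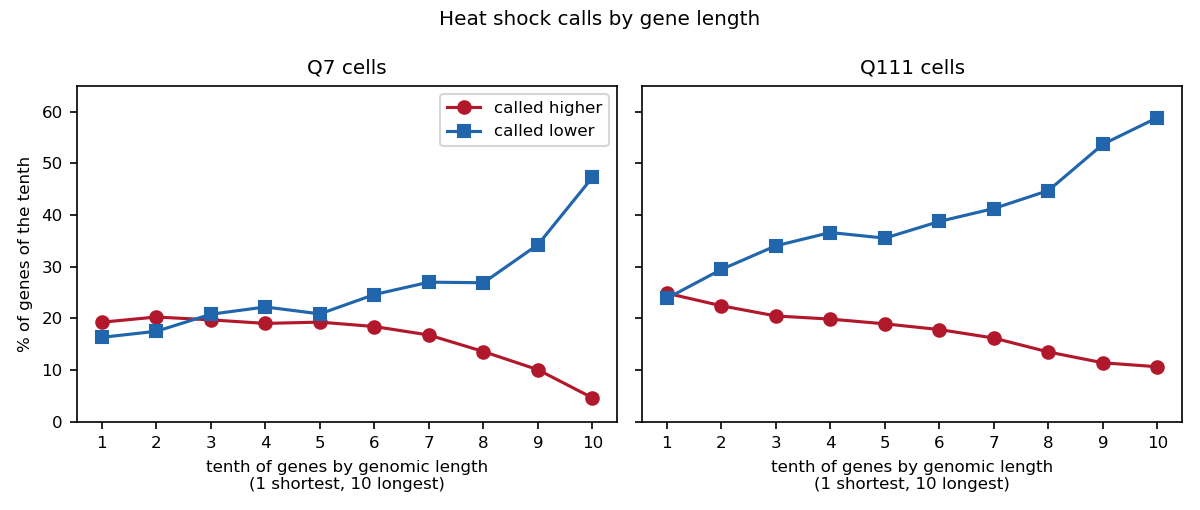
Percent of coding genes above background range called higher (red) and lower (blue) after heat shock, by decile of genomic length, in Q7 cells (left) and Q111 cells (right). In Q7 cells the lower share climbs from 16.3% in the shortest to 47.3% in the longest decile, and in Q111 cells from 23.9% to 58.9%.

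Gene lists differed in length too, but their median changes did not always follow it. The median span was 115 kb for the semaphorin and Slit list, of which 16 members were in the longest decile and 8 of these fell, and 72.7 kb for the chromatin remodelers, with 8 in the longest decile and 3 of these lower. Outside the longest decile 10 of 21 semaphorin and Slit genes and 12 of 29 remodelers fell, so the falls were not limited to the longest genes. The synthetases, with a median of 23.9 kb and no member in the longest decile, and the NF-kappaB and chemokine list, with 10.6 kb and none, thus had falls without members of that decile. Respiratory chain genes, more of which rose than fell, had a median of 7.08 kb, and mitochondrial ribosomal proteins 7.69 kb. Other lists went against the trend. Nuclear receptors, with a median span of 70.3 kb, had a median change of 0.21 as deposited, and histone genes, with 2.44 kb, one of -0.37.

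The response of Q7 cells can be set against that of Q111 cells through the difference of the 2 changes, which was called for 1041 genes (5.72%). That count was 500 without heat shock replicate 1, 377 without heat shock replicate 3, and 590 and 574 without untreated replicates 2 and 3. Of the 233 genes named by rule it was called for 39. Described here are 31 of these, which kept their call in Q7 cells in every alternative but the actin covariate or were fixed by name or among the largest changes, and Tap1. Of these 32 genes 18 were called in Q7 cells and not in Q111 cells, 9 in both with the same sign, 4 in both with opposite signs and 1 in Q111 cells alone. Tenm3 changed by -3.57 in Q7 and 0.07 in Q111 cells (difference -3.64, SE 0.35, adjusted p = 0.00144). Cxcl14 changed by -2.49 and 0.24 (difference -2.74, SE 0.35, adjusted p = 0.00265), and Prdm16 by -3.10 and 0.66 (difference -3.76, SE 0.42, adjusted p = 0.00191). These 3 falls were thus larger in Q7 cells. Background range was judged in Q7 cells alone, and whether such genes already lay in it in untreated Q111 cells was not tested. Dusp6 gave -0.06 in Q7 and 2.16 in Q111 cells (difference -2.22, SE 0.20, adjusted p = 0.00138). The signs were opposite and both changes called for Cpt1c (1.33 and -0.86), Irf9 (1.21 and -0.56), Nr1d1 (0.73 and -0.89) and Tap1, described below.

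**Figure D5:**
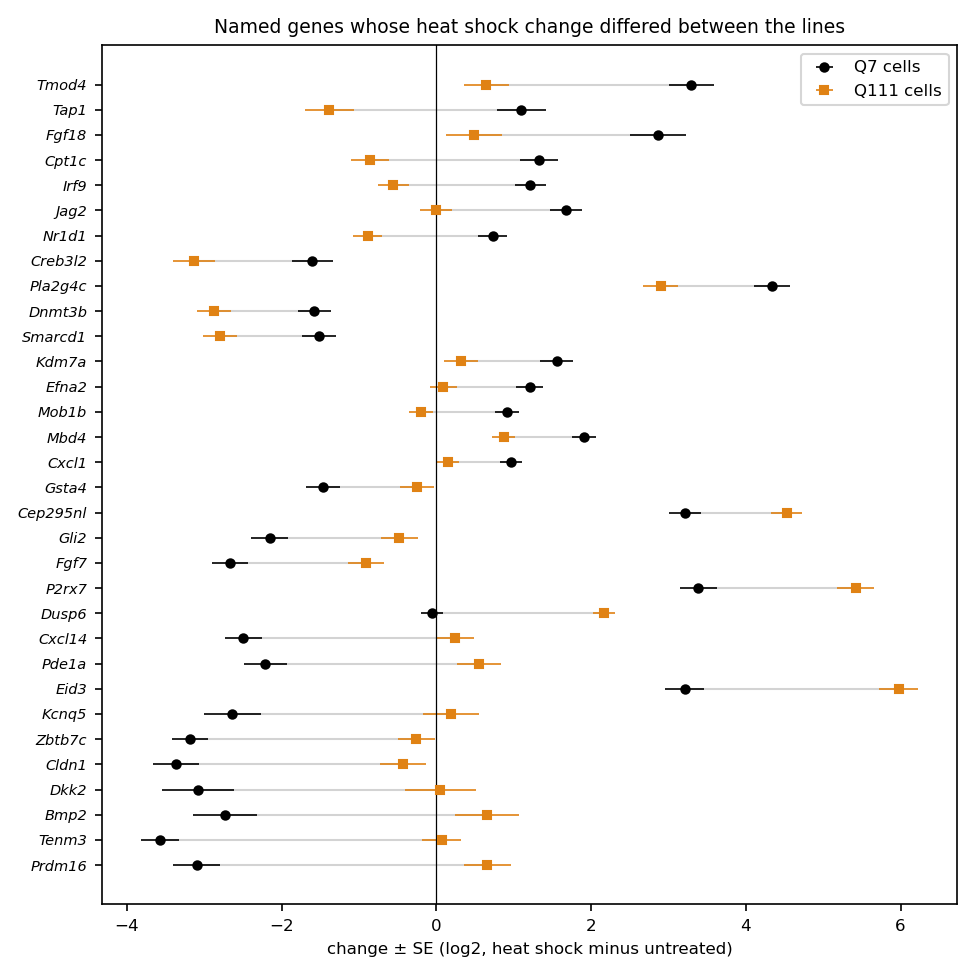
Log2 change after heat shock (± SE) in Q7 cells (circles) and Q111 cells (squares) for the 32 described genes whose changes differed between the lines, ordered by the difference. Prdm16, Tenm3 and Bmp2 at the bottom were called lower in Q7 and not in Q111 cells, and Tmod4, Tap1 and Fgf18 at the top rose in Q7 cells.

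By list, the interferon-stimulated and MHC class I genes held the largest share of differences, 21 of 45 members (46.7%) against 5.72% of all genes. The number was 11 to 13 on leaving out any 1 array but heat shock replicate 2, 14 after median centring and 12 with the actin covariate. All 21 differences had the same sign, with the higher change in Q7 cells. The median change of the list was -0.10 in Q7 and -1.08 in Q111 cells, where 28 members were called lower and none higher. In Q7 cells 11 of the 45 lay in background range in both groups, and Oasl2, Mx2, Ifit1, Mx1 and Gbp7 of the 21 were among them. A fall of such genes could hardly be measured in Q7 cells, which limits what their shared sign can show. Tap1, which pumps peptides for MHC class I, was at 6.98, 7.49 and 7.58 on the untreated and 8.61, 8.07 and 8.65 on the heat-shocked Q7 arrays (1.10, SE 0.32, adjusted p = 0.0212) and changed by -1.38 in Q111 cells (adjusted p of the difference = 0.0113); it was chosen after its values were seen, and its call in Q7 cells was lost without heat shock replicate 1 or 3 or untreated replicate 1 (adjusted p = 0.0622 to 0.0856), with the mean of its probe sets (0.18) and with the covariate. Other lists with over 15% of members differing were DNA and RNA methylation (4 of 20), Notch and Hedgehog signalling (7 of 36) and histone demethylases (4 of 24), which fell to as few as 0, 3 and 0 when 1 array was left out.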

How the data were processed

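Levels were used as deposited, 1 log2 value per probe set, which the authors made with RMA per the submitters' processing notes (software version and chip definition: not given in the sources used here). Of 45101 probe sets 64 are controls, 34945 name 1 gene, 932 name several and 9160 are unnamed here; 34741 were matched by gene identifier. A gene was represented by its probe set with the highest mean, and 9009 genes had more than 1. limma 3.58.1 in R 4.3.3 fitted 4 group means to 12 arrays (8 residual and 3.23 prior degrees of freedom), with two-sided tests and Benjamini-Hochberg adjustment over all genes. The procedure was tested on simulated data. Scanner files were not used.

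Members, lists and tests were chosen with earlier results of these data known. By rule, each list named its 2 largest positive and 2 largest negative changes among called genes that did not overlap between groups, kept their sign under every scaling and in other probe sets above background, and were above background in a group. The 12 largest rises and falls above background in both groups and 18 genes fixed by name, 14 of them analysed here, were added, 233 genes in all. Values are printed mainly for the 182 of 226 called genes whose call held in every alternative but the actin covariate. Counts per list under each setting were added too. Genes given with a change alone, and those said to be so, were chosen after their values were seen. Replicates were not duplicates. Sequences are from RefSeq, GRCm38.p6; gene spans come from the same annotation. Alternatives were other summaries of probe sets, filters, scalings, variance models, array weights, fits to 6 arrays, a replicate block, the actin covariate, a stricter threshold and each array left out.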

Additional observations from a re-analysis of the deposited data

Results flagged for a closer look

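In 32 described genes the change after heat shock differed between the lines, by limma's test of the difference at an adjusted p under 0.05. Values are the change in Q7 cells minus that in Q111 cells, with both changes in parentheses, on the log2 scale with 3 arrays per group. The count of such differences over all genes moved by more than 1.5 times when single arrays were left out. Levels of these genes in untreated Q111 cells were not set against background range, where a fall could hardly be measured.

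Of the genes called in Q7 but not in Q111 cells, the falls were Prdm16 -3.76 (-3.10 in Q7, 0.66 in Q111), Tenm3 -3.64 (-3.57 in Q7, 0.07 in Q111), Bmp2 -3.39 (-2.73 in Q7, 0.65 in Q111), Dkk2 -3.13 (-3.08 in Q7, 0.05 in Q111) and Cldn1 -2.93 (-3.36 in Q7, -0.43 in Q111). They went on with Zbtb7c -2.93 (-3.19 in Q7, -0.26 in Q111), Kcnq5 -2.83 (-2.64 in Q7, 0.19 in Q111), Pde1a -2.76 (-2.21 in Q7, 0.55 in Q111), Cxcl14 -2.74 (-2.49 in Q7, 0.24 in Q111), Gli2 -1.68 (-2.16 in Q7, -0.48 in Q111) and Gsta4 -1.21 (-1.47 in Q7, -0.25 in Q111). The rises were Cxcl1 0.81 (0.96 in Q7, 0.15 in Q111), Mob1b 1.10 (0.91 in Q7, -0.20 in Q111), Efna2 1.12 (1.21 in Q7, 0.09 in Q111), Kdm7a 1.24 (1.55 in Q7, 0.31 in Q111), Jag2 1.68 (1.68 in Q7, -0.0025 in Q111), Fgf18 2.38 (2.87 in Q7, 0.49 in Q111) and Tmod4 2.65 (3.30 in Q7, 0.65 in Q111). Tenm3 and Bmp2 act in cell adhesion and bone morphogenetic signalling respectively, Kcnq5 in the membrane current of neurons, and Jag2 in Notch signalling.

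Of the genes called in both lines with the same sign, those with the lower value in Q7 cells were Eid3 -2.77 (3.21 in Q7, 5.97 in Q111), P2rx7 -2.04 (3.38 in Q7, 5.42 in Q111), Fgf7 -1.76 (-2.66 in Q7, -0.91 in Q111) and Cep295nl -1.31 (3.21 in Q7, 4.53 in Q111). Those with the higher value in Q7 cells were Mbd4 1.04 (1.91 in Q7, 0.87 in Q111), Smarcd1 1.27 (-1.52 in Q7, -2.79 in Q111), Dnmt3b 1.29 (-1.58 in Q7, -2.87 in Q111), Pla2g4c 1.44 (4.34 in Q7, 2.90 in Q111) and Creb3l2 1.53 (-1.60 in Q7, -3.13 in Q111). For Dnmt3b, Smarcd1 and Creb3l2 the fall was thus deeper in Q111 cells.

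Signs were opposite for Nr1d1 1.62 (0.73 in Q7, -0.89 in Q111), Irf9 1.77 (1.21 in Q7, -0.56 in Q111), Cpt1c 2.19 (1.33 in Q7, -0.86 in Q111) and Tap1 2.48 (1.10 in Q7, -1.38 in Q111). Dusp6 gave -2.22 (-0.06 in Q7, 2.16 in Q111), the only one of the 32 that was called in Q111 cells and not in Q7 cells.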

How the results depend on the processing

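The count of 5526 called genes (2233 higher, 3293 lower) became 10067 (3935 and 6132) with every probe set separately, 9294 (4185 and 5109) with array weights, whose estimation did not converge, 3499 (1409 and 2090) at an adjusted p under 0.01, and 435 (252 and 183) with the actin covariate, where 3077 genes had an unadjusted p under 0.05. Median centring gave 4845 higher and 2057 lower. The 1041 differences between lines became 3407 with array weights, 407 with the covariate and 224 at the stricter threshold. Leaving out 1 array gave 4061 to 5151 called genes, 1616 to 2105 higher, 2337 to 3046 lower, and 377 to 1100 differences. A replicate block in a fit to the 6 Q7 arrays called 5234 (2103 and 3131); deviations of same-numbered arrays correlated at 0.146, -0.339 and -0.101, so the numbers were not taken as pairs. The cause of these shifts was not tested.

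Some small changes reversed. Mt1 gave 0.79 with the mean of probe sets, 0.32 after median centring, 0.045 with array weights, 0.22 with the covariate and -0.15 to 0.11 on leaving out arrays. Srxn1 gave 0.18 after median centring and 0.37 with the covariate. Dusp6 gave 0.30 after median centring, 0.026 after quantile normalization and -0.11 to 0.033 on leaving out arrays. Ube2c gave 0.10 with the covariate. Of 55 list medians 50 moved by more than the replicate spread with median centring, 10 with the covariate, and at most 7 under any other setting. Sars turned to 0.18 after median centring. The longest-minus-shortest difference ran from -0.39 with every probe set to -0.77 at untreated levels of 8 to 11. Probes near background limit falls of dim genes.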
